A study of Mus musculus with 60 samples.

Results

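Pbx2, Pbx3, Meis1, Meis2 and Meis3 were followed in bulk RNA-seq libraries of mouse embryonic brain, as the rows of the deposited expression table that carry these 5 gene names. All 5 were found among 24378 listed features. Pieces of brain had been taken from 5 regions: ventral midbrain (floor plate with basal plate), ventral forebrain, ventral hindbrain, dorsal midbrain and alar plate. Each was sampled at E11.5 (E for embryonic day) and once a day until E14.5, 4 stages in all, with 3 libraries per region and stage, 60 libraries in 20 groups. All embryos were TH-GFP transgenic, with a green fluorescent reporter under control of the tyrosine hydroxylase gene that helped to find the dopaminergic area under a stereomicroscope, and no genotype or treatment differed between groups. The series asks what sets apart the niche in which midbrain dopaminergic neurons are born. Whether the 3 libraries of a group stem from different embryos is not stated in the labels, so the p-values reflect the spread between libraries, which may be technical.

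Pbx and Meis proteins belong to the TALE class of homeodomain transcription factors, named for an extended loop in the DNA-binding domain. A Pbx protein binds DNA together with a Meis or Prep protein, and such pairs join Hox and other homeodomain factors as cofactors that sharpen their choice of sites. In the hindbrain, Pbx and Meis act with the anterior Hox proteins to give each segment its identity. In chick, Meis2 takes part with Otx2 in the formation of the tectum, the dorsal midbrain.

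Before any comparison, the libraries were set against their labels. Library depth, in units of 1000000 reads, ran between 1.58 and 6.43 at E11.5. It ran between 8.67 and 13.1 at E12.5, between 4.97 and 23.6 at E13.5, and between 0.979 and 6.13 at E14.5. Each library was correlated, across genes, with the mean of the other libraries of every region at its stage. Before this, the mean of each gene over all libraries of the stage was taken off. The correlations thus describe departures from the stage mean and not whole expression profiles. By this measure, 8 of 15 matched another region better than their own at E11.5. These were all ventral forebrain and all alar plate libraries, ventral hindbrain replicate 2 and ventral midbrain replicate 4. The number was 3 of 15 at E12.5, 1 of 15 at E13.5 and 2 of 15 at E14.5, and 5 of those 6 were alar plate libraries; the sixth was ventral forebrain replicate 1 at E12.5. Where leaving these libraries out moved a test of a member across a threshold, the value without them is given. In averages over stages, leaving them out also meant leaving out all E11.5 libraries. They were picked for not resembling their own region, so leaving them out itself favours differences between regions. Values without them are a description and not further support.

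All values below are RPKM, reads per kilobase of the listed length and per 1000000 assigned reads, as the authors deposited them. Averaged over the 60 libraries, Pbx3 had the highest level of the 5 genes with 78.4 RPKM. Pbx2 followed with 47.9, Meis3 with 44.9, Meis2 with 39.5 and Meis1 with 15.2 RPKM. Meis1 lay above 78.5% of all listed features and Pbx3 above 97.0%. The lowest read number behind any of these values was 9, for Meis1, and the lowest for Pbx2 was 82. Between the highest and the lowest of the 20 group means, Meis2 spanned 43.7-fold and Meis1 19.8-fold. Pbx3 spanned 4.13-fold, Pbx2 3.46-fold and Meis3 2.46-fold.

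The genes lie on 4 chromosomes (mm10 build, GENCODE vM21), and each is protein-coding. Pbx3 (34171457 to 34373142) and Meis2 (115863064 to 116065839) are both on the minus strand of chromosome 2. Meis1 spans 18879817 to 19018985 on the minus strand of chromosome 11, Meis3 spans 16175090 to 16186504 on the plus strand of chromosome 7, and Pbx2 spans 34591266 to 34597400 on the plus strand of chromosome 17. Pbx2 shares exons with Gpsm3 on the same strand, which is also listed, and Meis1 overlaps an antisense gene, Gm16140, and a gene on its own strand, Gm37818, neither of which is listed. Strand cannot tell apart reads in the stretches shared with Gpsm3 and Gm37818, which lie on the same strand as the member. The strand of the libraries is not given in the sources used here, so reads shared with Gm16140 cannot be told apart either.

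Meis1 and Meis2 were the members with the widest regional range, so the sequence before their RefSeq start sites (GRCm38.p6) is shown, limited to bases outside every GENCODE exon and written 5′ to 3′ along the gene. The Meis1 stretch is chr11:19018986-19019219 and the Meis2 stretch chr2:116064722-116064801, both on the minus strand. The Meis2 stretch lies inside the gene as annotated, as do the windows of Pbx2 and Meis3 that were searched.
Meis1: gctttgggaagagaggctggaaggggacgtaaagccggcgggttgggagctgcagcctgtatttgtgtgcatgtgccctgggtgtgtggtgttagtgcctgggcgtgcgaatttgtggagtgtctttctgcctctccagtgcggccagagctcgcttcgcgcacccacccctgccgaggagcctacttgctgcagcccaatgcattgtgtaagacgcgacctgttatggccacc
Meis2: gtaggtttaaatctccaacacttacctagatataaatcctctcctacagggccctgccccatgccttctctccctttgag
The whole 250 bases before the start were searched on both strands for TGACAG (a Meis core), TGATNNAT (a Pbx and Hox core), AGGTCA (a retinoic acid receptor core) and TAATTA (a homeodomain core). None of the 4 was found before Meis1, Meis2, Meis3 or Pbx2, so no letters are in capitals. No window was available for Pbx3, which was not searched. Over 32851 RefSeq windows of that length, 15.9% held TGACAG, 7.68% TGATNNAT, 14.02% AGGTCA and 4.84% TAATTA. No match says only that these letters are not in these windows.

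Averaged over the 4 stages, the clearest regional pattern was that of Meis2 and Meis1. Meis2 was lower in the ventral midbrain and ventral forebrain, and higher in the ventral hindbrain, dorsal midbrain and alar plate, than in the other 4 regions together. Each region is part of the reference of the others, so these 5 differences are not independent. Meis1 was higher in the ventral hindbrain and lower in the ventral forebrain. Pbx2, Pbx3 and Meis3 passed both thresholds in no region. These contrasts came from limma on log2(RPKM + 1), a scale that understates the change of low genes, over all 60 libraries. A gene counted as higher or lower at a Benjamini-Hochberg adjusted p below 0.05 over all 14692 genes tested and a log2 difference of at least 1. Of the 5 members, 1 passed in the ventral midbrain, where 1.72% of all genes did. The count was 2 in the ventral forebrain against a background of 0.776%, 2 in the ventral hindbrain against 1.57%, 1 in the dorsal midbrain against 4.51% and 1 in the alar plate against 0.619%. The median difference of the 5 members was -0.34 in the ventral midbrain, -0.95 in the ventral forebrain, 0.78 in the ventral hindbrain, -0.05 in the dorsal midbrain and 0.08 in the alar plate. The median over all genes tested was between -0.02 and 0.03 in these comparisons.

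**Figure D1:**
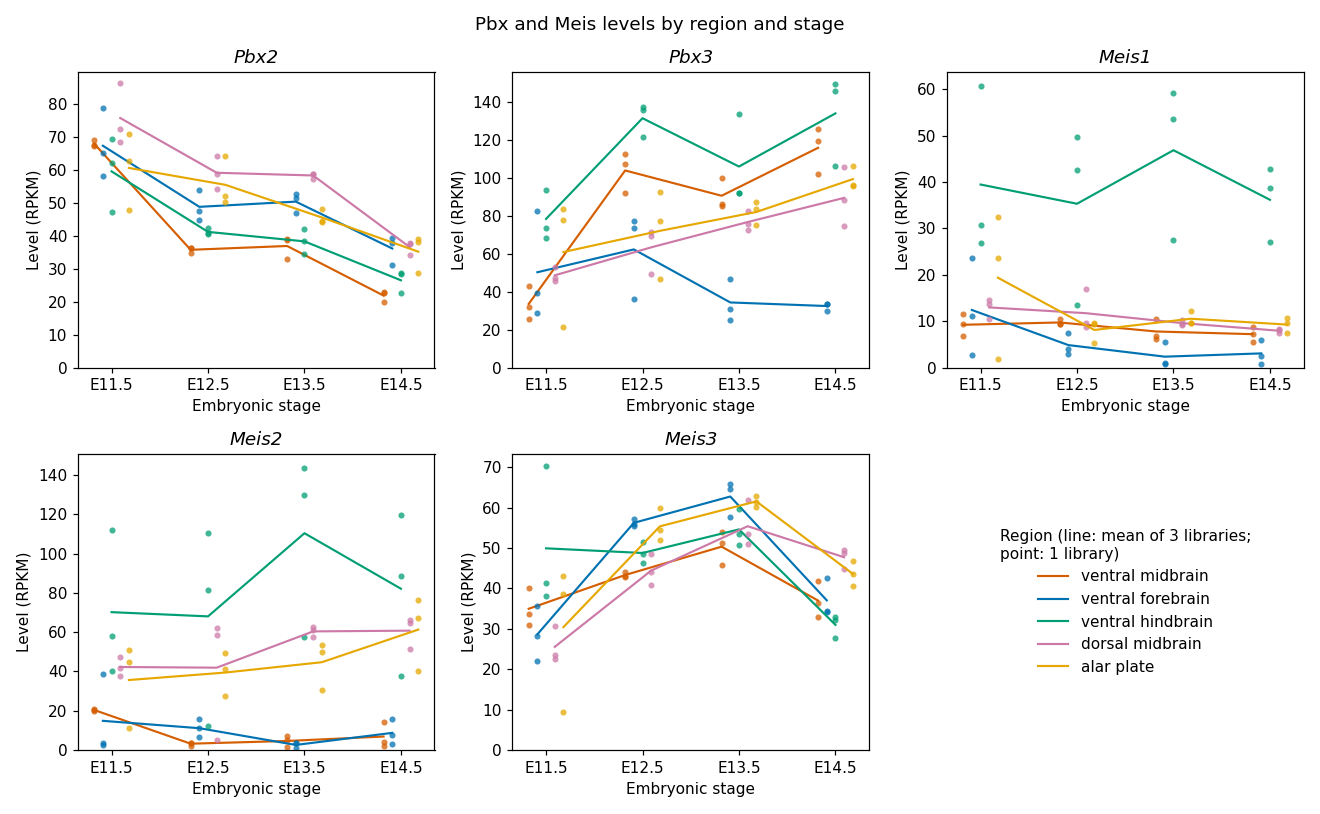
Level of each gene in RPKM (vertical axes, linear, from 0) at the 4 stages (horizontal axes), with 1 point per library and lines through the mean of 3 libraries of each of 5 regions. Ventral hindbrain libraries are highest for Meis1 at E13.5 and E14.5, ventral midbrain and ventral forebrain libraries are low for Meis2 from E12.5, and the Pbx2 mean is lowest at E14.5 in every region.

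Meis2 was low in ventral midbrain and ventral forebrain pieces and higher in the other regions. In the ventral midbrain it had 20.7, 20.5 and 19.8 RPKM at E11.5, then 3.63, 2.13 and 3.71 at E12.5, 7.01, 5.13 and 1.497 at E13.5, and 14.4, 3.89 and 2.12 at E14.5. The 12 ventral midbrain libraries ran from 1.497 through a median of 4.51 to 20.7 RPKM, against 0.810, 45.9 and 144 RPKM in the 48 other libraries. All ventral midbrain libraries of E12.5 and E13.5 lay below each library of the ventral hindbrain and alar plate at those stages. The averaged difference was -2.13 ± 0.30 (log2, SE, adjusted p = 2.68e-07), with the same sign at 4 of 4 stages by mean RPKM. This difference was -2.75 without the libraries that matched another region best.

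In the ventral forebrain Meis2 had 2.38, 38.5 and 3.58 RPKM at E11.5, 6.49, 15.7 and 11.02 at E12.5, 3.44, 3.33 and 0.810 at E13.5, and 15.8, 7.42 and 2.85 at E14.5. Replicate 4 at E11.5, with 38.5 RPKM, stood apart from the rest and was a library that matched the ventral hindbrain best. The median was 5.03 RPKM over the 12 ventral forebrain libraries and 45.9 RPKM over the 48 others, and the averaged difference was -2.15 ± 0.30 (adjusted p = 8.82e-07).

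The ventral hindbrain held the highest Meis2 mean at every stage and also the widest spread. Its libraries had 40.2, 112 and 58.1 RPKM at E11.5, 11.95, 111 and 81.5 at E12.5, 144, 57.8 and 129.9 at E13.5, and 37.8, 88.7 and 119.9 at E14.5. Replicate 1 at E12.5 was the low library, with 11.95 RPKM, inside the range of the ventral forebrain at that stage. With the stage mean taken off, its correlation with its own region was 0.652, against 0.817 and 0.828 for the other ventral hindbrain libraries of E12.5. The part of this in the Meis2 value was not tested. The difference was 1.99 ± 0.30 (adjusted p = 1.53e-06), between a mean of 82.7 RPKM in the ventral hindbrain and 28.6 RPKM in the other regions.

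In the dorsal midbrain Meis2 had 41.9, 37.7 and 47.1 RPKM at E11.5, 62.1, 58.6 and 5.04 at E12.5, 61.1, 57.7 and 62.4 at E13.5, and 64.6, 51.5 and 66.1 at E14.5. These values were close to each other but for replicate 3 at E12.5, whose 5.04 RPKM fell among the ventral levels. With the stage mean taken off, that library correlated with its own region at 0.532, against 0.873 and 0.880 for the other dorsal midbrain libraries of E12.5. The dorsal midbrain difference was 1.23 ± 0.30 (adjusted p = 0.000435), and it was between 1.08 and 1.504 when any single library was left out. The mean was 51.3 RPKM against 36.5 RPKM in the other regions, which include the low ventral midbrain and ventral forebrain.

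The alar plate had 44.7, 11.3 and 50.8 RPKM of Meis2 at E11.5, 41.2, 49.5 and 27.5 at E12.5, 30.7, 49.8 and 53.6 at E13.5, and 40.1, 76.5 and 67.3 at E14.5. Its mean was 45.3 RPKM against 38.0 RPKM in the other regions, again with the low ventral midbrain and ventral forebrain among them. By stage, its mean RPKM lay above the mean of the other regions at 3 of 4 stages, a count not taken on the log2 scale of the test. The averaged log2 difference of the alar plate, 1.07 ± 0.30 (adjusted p = 0.0130), was the least firm of the regional calls. It fell short of the log2 threshold without alar plate replicate 6 at E11.5 (0.97), alar plate replicate 2 at E11.5 (0.996) or dorsal midbrain replicate 3 at E12.5 (0.998). Without the libraries that matched another region best it was 1.46, with a wider SE of 0.51, and did not pass the adjusted p. That fit held no alar plate library of E11.5 and alar plate groups of 1 library at E12.5 and E14.5. In bulk pieces such as these, fewer cells of a type and less RNA per cell cannot be told apart.

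Within single stages, Meis2 differed among the 5 regions at E12.5, E13.5 and E14.5. An F test over the regions was used, with the highest minus the lowest group mean on the log2 scale as the size. At E12.5, 3 of the 5 members passed both thresholds (Meis2, Meis1 and Pbx3), where 14.6% of all genes did. The same 3 passed at E13.5, against a background of 16.8%, and at E14.5, against 15.7%. At E11.5 limma called none of the 5, with 1 at an unadjusted p below 0.05 (Meis2) and none with voom on recovered reads, and 0.116% of all genes passed. The range of Meis2 was 2.94 at E11.5 (adjusted p = 0.227), 3.59 at E12.5 (0.0254), 4.99 at E13.5 (2.29e-06) and 3.601 at E14.5 (0.000317). The E12.5 result was lost without ventral hindbrain replicate 3 (adjusted p = 0.0548) or without ventral midbrain replicate 1, 2 or 3 (0.0623, 0.0814 and 0.0634). Prefixes in the sample descriptions were read as runs. By these, the 2 midbrain regions at E14.5 were in another run than the 3 others. Among those 3 regions, which shared a run, the Meis2 range was 3.20 (adjusted p = 0.00896). Without the libraries that matched another region best, only ventral midbrain, ventral hindbrain and dorsal midbrain libraries remained at E11.5. Among these, 4 members passed at E11.5: Meis2 with a range of 1.94 (adjusted p = 0.00271), Meis1 with 1.96 (0.00282), Meis3 with 1.06 (0.0155), and Pbx3 (0.000967). In all 1674 genes passed there, against 16 with all libraries. The libraries left out had been picked by their likeness to other regions, which itself favours such calls. At that stage the dorsal midbrain had been sequenced in another run than the 4 other regions, so in this comparison of 3 regions its difference and the run cannot be told apart. Among the 4 regions of 1 run, with all their libraries, the adjusted p at E11.5 was 0.723 for Pbx3, Meis1, Meis2 and Meis3 and 0.781 for Pbx2.

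**Figure D2:**
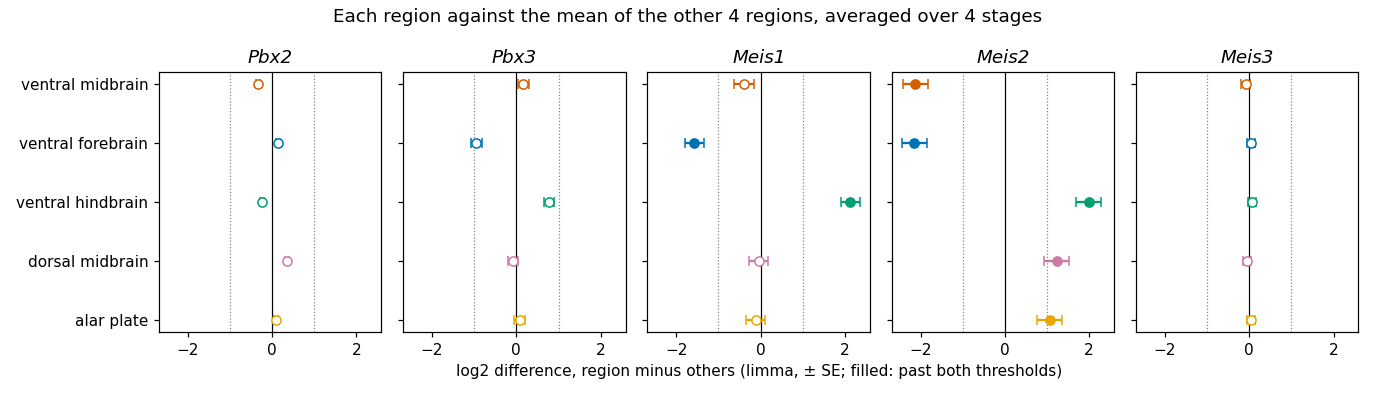
Difference of each region from the mean of the other 4 regions (horizontal axis, log2 with SE, 60 libraries) for the 5 genes, with dotted lines at the log2 threshold of 1 in either direction; filled points passed both thresholds. Meis2 is past them in all 5 regions, Meis1 in the ventral forebrain (-1.57) and ventral hindbrain (2.13), and the other genes in none.

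Meis1, best known for its part in blood stem cells and Hox-driven leukaemia, had its highest levels in the ventral hindbrain. Ventral hindbrain libraries had 26.9, 60.7 and 30.8 RPKM at E11.5, 13.6, 49.8 and 42.6 at E12.5, 59.3, 27.6 and 53.7 at E13.5, and 27.1, 38.7 and 42.8 at E14.5. They ran from 13.6 through a median of 40.6 to 60.7 RPKM, against 0.697, 9.28 and 32.5 RPKM in the 48 other libraries. At E13.5 and E14.5 each ventral hindbrain library lay above every other library of its stage. At E12.5, ventral hindbrain replicate 1 (13.6 RPKM) lay below dorsal midbrain replicate 3 (16.8 RPKM), the same libraries that stood apart for Meis2. The averaged difference was 2.13 ± 0.23 (adjusted p = 1.29e-09), with means of 39.5 RPKM in the ventral hindbrain and 9.14 RPKM elsewhere. By mean RPKM it had the same sign at 4 of 4 stages.

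The ventral forebrain held the lowest Meis1 mean from E12.5 on. Its libraries had 2.63, 23.6 and 11.1 RPKM at E11.5, 4.13, 7.55 and 2.91 at E12.5, 0.964, 5.44 and 0.697 at E13.5, and 5.89, 2.60 and 0.728 at E14.5. Replicate 4 at E11.5 was again the high library. The difference was -1.57 ± 0.23 (adjusted p = 2.04e-06), and it was -1.89 without the libraries that matched another region best. Between these extremes the ventral midbrain, dorsal midbrain and alar plate had similar levels: from E12.5 to E14.5 their group means ran from 7.22 RPKM (ventral midbrain, E14.5) to 11.7 RPKM (dorsal midbrain, E12.5). Their contrasts did not pass, with -0.39 ± 0.23 in the ventral midbrain (adjusted p = 0.183), -0.05 ± 0.23 in the dorsal midbrain (0.863) and -0.11 ± 0.23 in the alar plate (0.799). Within stages the Meis1 range was 1.92 at E11.5 (adjusted p = 0.413), 2.52 at E12.5 (0.00720), 4.03 at E13.5 (4.31e-05) and 3.39 at E14.5 (0.000117).

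Meis1 and Meis2 had their highest average in the same region, the ventral hindbrain, and differed in the rest of the order. In the dorsal midbrain and alar plate Meis2 was at 35.6 to 61.3 RPKM per group while Meis1 was at 7.96 to 19.4 RPKM. Over the 20 group means of log2(RPKM + 1) they correlated at r = 0.70 (rho = 0.69), and over the 60 libraries at r = 0.67. These are descriptions, since libraries of 1 region share their tissue. In alar plate replicate 4 at E11.5, the shallowest library of that stage, both were low, with 1.97 RPKM of Meis1 and 11.3 RPKM of Meis2, and Pbx3 (21.3 RPKM) and Meis3 (9.47 RPKM) were at their lowest among the 60 libraries. Summed mesenchyme and meninges markers (Col1a1, Col1a2, Col3a1, Lum and Foxc1) ranged from 4.26 to 544 RPKM among the 3 alar plate libraries of E11.5; their part in these values was not tested.

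**Figure D3:**
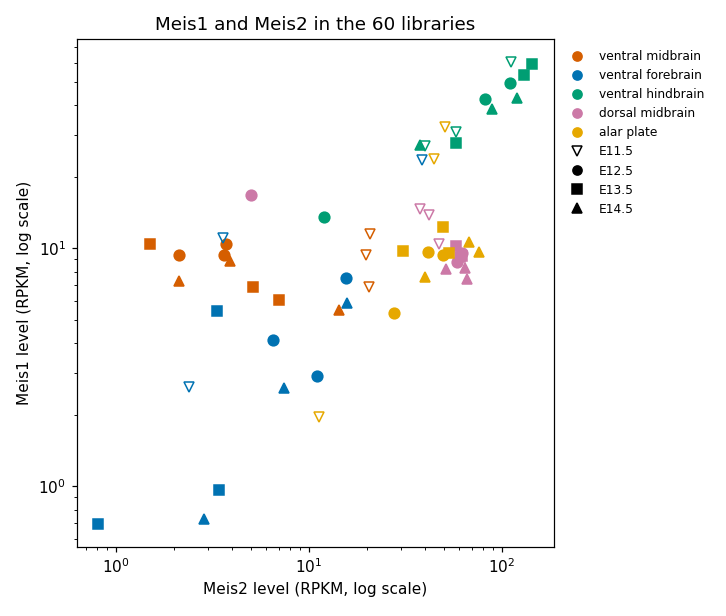
Meis1 against Meis2 level in each of the 60 libraries (RPKM, log scale on both axes), coloured by region, with a symbol for each stage and open symbols at E11.5. Ventral hindbrain libraries are at the upper right but for replicate 1 at E12.5 (11.95 RPKM of Meis2), and the dorsal midbrain library at 5.04 RPKM of Meis2 lies apart from its group.

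Meis3, known from Xenopus for a role in hindbrain patterning, had no regional average past the adjusted p: differences were -0.09 ± 0.10 in the ventral midbrain, 0.03 ± 0.10 in the ventral forebrain, 0.07 ± 0.10 in the ventral hindbrain, -0.06 ± 0.10 in the dorsal midbrain and 0.05 ± 0.10 in the alar plate, with adjusted p-values of 0.521 to 0.906. These averages depended on E11.5. Without that stage the ventral hindbrain was lower (-0.16, adjusted p = 0.00243), as was the ventral midbrain (-0.18, 0.00117), and the alar plate was higher (0.19, 0.00166), while the ventral forebrain (0.11, 0.0813) and dorsal midbrain (0.04, 0.367) did not pass. With E12.5 and E13.5 alone the ventral forebrain was higher (0.21, 0.00354), the alar plate higher (0.18, 0.0125), and the ventral midbrain (-0.22, 0.000774) and dorsal midbrain (-0.12, 0.0324) lower. Without the libraries that matched another region best, the ventral midbrain (-0.17, 0.00240) and ventral hindbrain (-0.16, 0.00464) were lower. All of these were below the log2 threshold. Within stages and with all libraries, too, the regions differed by less than that threshold. The range was 0.90 at E11.5 (adjusted p = 0.475), where it was 1.06 (0.0155), past both thresholds, without the libraries that matched another region best. It was 0.37 at E12.5 (adjusted p = 0.00980), 0.31 at E13.5 (0.0273) and 0.61 at E14.5 (0.00423), past the adjusted p alone, as were 33.9%, 59.7% and 38.7% of all genes at these stages. The E13.5 value lost that p without ventral midbrain replicate 4 or 5 or ventral forebrain replicate 5 or 6 (up to 0.0718), and at E14.5 it was 0.0501 among the 3 regions of 1 run.

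The order of regions for Meis3 turned over with stage. At E12.5 the ventral forebrain was highest (56.0, 57.2 and 55.4 RPKM) and the ventral midbrain lowest (42.7, 43.1 and 44.0 RPKM), with no overlap. At E14.5 the dorsal midbrain was highest (48.8, 49.5 and 44.8 RPKM) and the ventral hindbrain lowest (27.7, 32.9 and 32.2 RPKM), again without overlap, and the ventral forebrain had 34.3, 42.7 and 34.1 RPKM. Every region had its highest mean at E13.5, from 50.3 ± 4.11 RPKM in the ventral midbrain to 62.7 ± 4.42 RPKM in the ventral forebrain (SD, n = 3).

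Pbx3, which mice need for the brainstem circuits of breathing, was lower in the ventral forebrain and higher in the ventral hindbrain by the adjusted p, though not by a log2 of 1. In the ventral forebrain it had 28.6, 82.9 and 39.5 RPKM at E11.5, 36.2, 77.4 and 73.5 at E12.5, 31.0, 46.9 and 25.3 at E13.5, and 33.8, 29.9 and 33.8 at E14.5. At E13.5 and E14.5 these libraries lay below each library of the other 4 regions. The averaged difference was -0.95 ± 0.12 (adjusted p = 3.31e-07, as 8.93% of all genes had below 0.05), in the same direction at 4 of 4 stages by mean RPKM. It passed the log2 threshold without replicate 4 at E11.5 (-1.05), without replicate 5 at E13.5 (-1.01), without all E11.5 libraries (-1.21) or without the libraries that matched another region best (-1.13).

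The ventral hindbrain held the highest Pbx3 mean at each stage. Its libraries had 68.1, 73.5 and 93.7 RPKM at E11.5, 121, 137 and 136 at E12.5, 92.1, 134 and 92.3 at E13.5, and 107, 146 and 149.6 at E14.5, with a difference of 0.78 ± 0.12 (adjusted p = 4.93e-06; 42.3% of all genes were below 0.05). At E12.5 all 3 lay above every other library of the stage. The ventral midbrain came next from E12.5 on, with 91.9, 113 and 107 RPKM at E12.5, 85.5, 86.5 and 100.04 at E13.5, and 102, 126 and 119.8 at E14.5, while at E11.5 its 25.6, 43.1 and 32.2 RPKM made the lowest mean. Its average over the 4 stages did not pass (0.17 ± 0.12, adjusted p = 0.315), but it was higher by the adjusted p without E11.5 (0.46, 0.000485), with E12.5 and E13.5 alone (0.42, 0.0268) and without the libraries that matched another region best (0.40, 0.000261). Nor did that of the dorsal midbrain (-0.08 ± 0.12, 0.606) or the alar plate (0.08 ± 0.12, 0.737).

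Within stages the Pbx3 range was 1.22 at E11.5 (adjusted p = 0.427), 1.14 at E12.5 (0.0220), 1.62 at E13.5 (5.24e-05) and 1.998 at E14.5 (9.80e-07). The E12.5 result was lost without ventral hindbrain replicate 2 (adjusted p = 0.0631) or 3 (0.0628). At E14.5 the means were 134 ± 23.9 RPKM in the ventral hindbrain and 32.5 ± 2.25 RPKM in the ventral forebrain (SD, n = 3), which are regions of the same run.

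Pbx2, a broadly expressed Pbx gene, differed little between regions, and only the dorsal midbrain kept its rank at every stage. The dorsal midbrain had the highest mean at all 4 stages and the ventral midbrain the lowest from E12.5 on. At E11.5 the ventral midbrain (68.0 RPKM) came next after the dorsal midbrain (75.8 RPKM). The dorsal midbrain difference was 0.35 ± 0.05 (adjusted p = 9.22e-08; 61.1% of all genes were below 0.05). The ventral midbrain difference was -0.34 ± 0.05 (9.25e-07; 34.1%) and that of the ventral hindbrain -0.25 ± 0.05 (0.000172). The ventral forebrain (0.14 ± 0.05, 0.0720) and alar plate (0.09 ± 0.05, 0.260) did not pass with all libraries. Without E11.5 both were higher by the adjusted p, at 0.18 (0.00989) in the ventral forebrain and 0.17 (0.00996) in the alar plate. Without the libraries that matched another region best the differences were 0.15 in the ventral forebrain and 0.18 in the alar plate. That fit held alar plate groups of 1 library at E12.5 and E14.5. The ventral forebrain also passed with the replicate number as a block (0.0205). At E13.5 the dorsal midbrain had 57.2, 58.9 and 58.8 RPKM, above every other library, and the ventral midbrain 39.0, 38.7 and 33.1 RPKM. Within stages the range was 0.35 at E11.5 (adjusted p = 0.489), 0.71 at E12.5 (0.00137), 0.65 at E13.5 (5.66e-05) and 0.72 at E14.5 (0.00159). Among the 3 regions of 1 run at E14.5 it was 0.43 (adjusted p = 0.126).

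The second comparison asked how the genes differed between E14.5 and E12.5 within each region. Pbx2 fell in the ventral midbrain, dorsal midbrain and ventral hindbrain by the adjusted p, and Meis3 in the ventral hindbrain and ventral forebrain, all by less than a log2 of 1. No member passed both thresholds with limma in any region: 0 of 25 gene and region pairs, with 10 at an unadjusted p below 0.05 and 0 with voom on recovered reads. Of all genes, 4.23% passed in the ventral midbrain, 1.35% in the ventral forebrain, 1.27% in the ventral hindbrain, 0.883% in the dorsal midbrain and 0.00726% in the alar plate. By the adjusted p alone 5 of 25 pairs passed, against 34.0%, 4.45%, 14.1%, 9.75% and 0.00726% of all genes in the same order of regions. No region had E14.5 libraries in the same run as its E12.5 or E11.5 libraries, so stage and run cannot be told apart.

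In the ventral midbrain Pbx2 had 22.8, 22.7 and 20.1 RPKM at E14.5 against 36.3, 34.8 and 36.2 RPKM at E12.5, with no overlap. The change was -0.69 ± 0.07 (adjusted p = 8.56e-05). In the dorsal midbrain it had 34.3, 37.9 and 37.6 RPKM at E14.5 against 64.2, 58.9 and 54.3 RPKM at E12.5, a change of -0.68 ± 0.09 (0.00605). In the ventral hindbrain it had 22.5, 28.6 and 28.4 RPKM at E14.5 against 40.5, 40.8 and 42.4 RPKM at E12.5, a change of -0.62 ± 0.14 (0.0148) that was lost without replicate 1 or 3 of E12.5 (0.0511 and 0.0548). The stages did not overlap in any of these regions. In the alar plate Pbx2 had 28.6, 38.9 and 38.1 RPKM at E14.5 against 50.2, 52.0 and 64.2 RPKM at E12.5, also without overlap, but its change of -0.65 ± 0.17 did not pass (adjusted p = 0.105), nor did that of the ventral forebrain (-0.43 ± 0.13, 0.0736). The mean summed level of progenitor markers (Sox2, Nes, Mki67 and Hes5) was also lower at E14.5 in all 5 regions. It was 131 against 319 RPKM in the ventral midbrain, 176 against 194 in the ventral forebrain and 137 against 260 in the ventral hindbrain. In the dorsal midbrain it was 218 against 361 and in the alar plate 114 against 277. The stages overlapped in the ventral forebrain, with libraries from 140 to 198 RPKM at E14.5 and from 135 to 302 at E12.5. They also overlapped in the dorsal midbrain (162 to 289 against 250 to 425), and in no other region. The part of these markers in the Pbx2 levels was not tested.

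Meis3 had 27.7, 32.9 and 32.2 RPKM at E14.5 against 51.6, 48.5 and 46.2 RPKM at E12.5 in the ventral hindbrain, a change of -0.64 ± 0.18 (adjusted p = 0.0390). In the ventral forebrain it had 34.3, 42.7 and 34.1 RPKM at E14.5 against 56.0, 57.2 and 55.4 RPKM at E12.5, a change of -0.60 ± 0.15 (0.0467). The stages did not overlap in either region, but the adjusted p rose above 0.05 in 8 of 12 fits with 1 library left out in the ventral hindbrain and in 10 of 12 in the ventral forebrain. In the dorsal midbrain, by contrast, Meis3 had 48.8, 49.5 and 44.8 RPKM at E14.5 against 40.8, 44.0 and 48.4 RPKM at E12.5 (0.10 ± 0.12, adjusted p = 0.584). Whether the change differed among the 5 regions was tested directly, over 30 libraries. For Meis3 it did by the adjusted p (0.00957), with changes that ranged over 0.74 on the log2 scale. At E14.5 both midbrain regions were in another run than the 3 other regions, so a difference in change between these sets of regions and the run cannot be told apart. No member passed both thresholds in that F test (2.20% of all genes did), with 2 members at an unadjusted p below 0.05 and none called with voom; by the adjusted p alone 1 of 5 passed, as did 2.61% of all genes.

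For Pbx3 the estimates had opposite signs in different regions and none passed. It had 33.8, 29.9 and 33.8 RPKM at E14.5 against 36.2, 77.4 and 73.5 RPKM at E12.5 in the ventral forebrain (-0.85 ± 0.38, adjusted p = 0.202). In the dorsal midbrain it had 106, 88.3 and 74.7 RPKM at E14.5 against 71.5, 69.6 and 49.2 RPKM at E12.5 (0.50 ± 0.15, 0.0544). Ventral forebrain replicate 1 at E12.5, the low library with 36.2 RPKM, matched the alar plate best. Without the libraries that matched another region best the ventral forebrain change was -1.19 ± 0.21 (adjusted p = 0.0156), past both thresholds. The test among regions gave a range of 1.36 (adjusted p = 0.0641). It passed without ventral forebrain replicate 1 (0.00366), alar plate replicate 2 (0.0289) or alar plate replicate 3 (0.0397) of E12.5, and without the libraries that matched another region best (range 1.69, 0.00147). Meis1 and Meis2 showed no change past the adjusted p in any region, and their standard errors were wide, up to 0.74 for Meis1 and 0.84 for Meis2, both in the ventral forebrain.

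**Figure D4:**
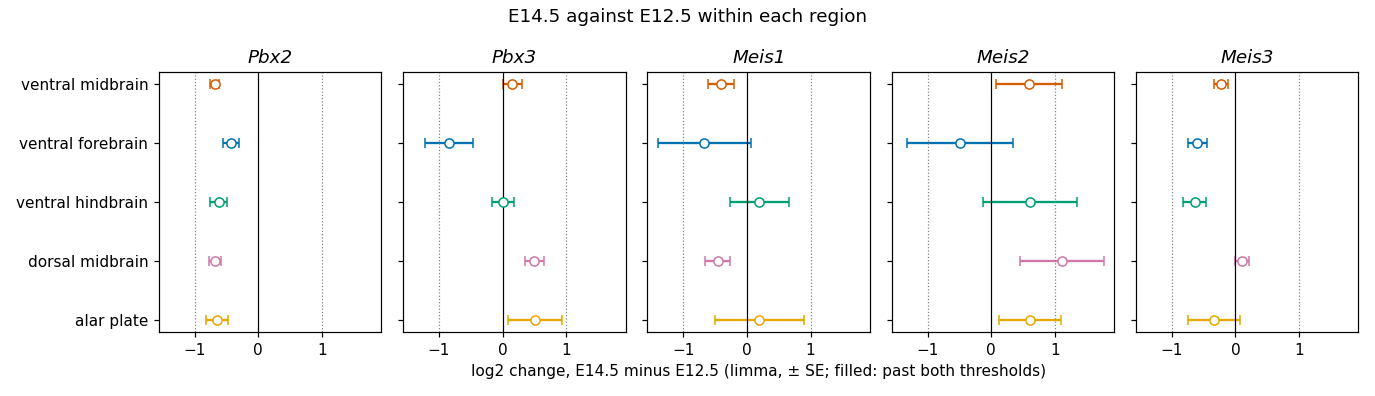
Change of each gene at E14.5 relative to E12.5 within each region (horizontal axis, log2 with SE, 12 libraries per fit), with dotted lines at the log2 threshold of 1 in either direction. All points are open because none passed both thresholds; Pbx2 lies between -0.69 and -0.43 in all 5 regions, and the intervals of Meis1 and Meis2 are wide.

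Against E11.5 in place of E12.5 more pairs passed, but that stage held 8 of the libraries that matched another region best. In the ventral midbrain Pbx2 was 22.8, 22.7 and 20.1 RPKM at E14.5 against 67.6, 69.0 and 67.3 RPKM at E11.5 (-1.59 ± 0.07, adjusted p = 3.24e-08). Pbx3 was 102, 126 and 119.8 RPKM at E14.5 against 25.6, 43.1 and 32.2 RPKM at E11.5 (1.78 ± 0.16, 1.61e-06). Meis2 was 14.4, 3.89 and 2.12 RPKM at E14.5 against 20.7, 20.5 and 19.8 RPKM at E11.5 (-1.79 ± 0.52, 0.0106). The stages did not overlap for any of the 3 genes. Pbx2 also passed both thresholds in the ventral hindbrain (-1.13 ± 0.14, 5.51e-05) and dorsal midbrain (-1.02 ± 0.09, 1.22e-05), so 5 of 25 pairs passed. Of all genes, 17.8% passed in the ventral midbrain, 16.4% in the ventral forebrain, 16.6% in the ventral hindbrain, 15.9% in the dorsal midbrain and 20.2% in the alar plate. Both comparisons share the E14.5 libraries.

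The regions were also put in order of their levels. Of 80 neighbouring pairs (4 for each of 5 genes at each of 4 stages, ordered by mean), 17 had no overlap between their libraries; over all 14692 genes tested, 12.02% of such pairs had none. At E11.5 the one such pair was the dorsal midbrain above the ventral midbrain for Pbx3. Pbx2 and Meis2 had 2 such pairs each at E12.5 and at E13.5. For Meis2 these were the alar plate above the ventral forebrain and the ventral forebrain above the ventral midbrain at E12.5, and at E13.5 the dorsal midbrain above the alar plate and the alar plate above the ventral midbrain. From E12.5 to E14.5 the low ventral midbrain and ventral forebrain levels of Meis2 did not overlap those of the region next above in the order of means. That region was the alar plate at E12.5 and E13.5 and the dorsal midbrain at E14.5. The dorsal midbrain did overlap the low levels at E12.5, where its replicate 3 (5.04 RPKM) lay below the ventral forebrain libraries (6.49 to 15.7 RPKM). For Meis3 the one pair was the alar plate above the ventral hindbrain at E12.5.

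Genes with the most similar pattern were found by the correlation of log2(RPKM + 1) group means over the 20 groups, among 10778 genes with a group mean of at least 5 RPKM somewhere. Cyp26b1, for a retinoic acid degrading enzyme, was closest to Meis1 (r = 0.88), followed by the nicotinic receptor subunit gene Chrna5 and the glycine transporter gene Slc6a5 (0.84 each). Meis2 was closest to the guidance receptor gene Epha4 (0.90), Mab21l2 (0.88) and Mab21l1 (0.84). Pbx3 was nearest to Grip1 (0.83), Mtus2 (0.79) and the glutamate receptor subunit gene Gria3 (0.77), of which Grip1 encodes a glutamate receptor scaffold. The flatter members had closer neighbours: Taf15, Eif1ad and Lrdd for Pbx2 (0.96, 0.96 and 0.95), and Cyth2, Csnk1e and Arhgef2 for Meis3 (0.94, 0.94 and 0.93). These are descriptions over 20 groups that share tissue and run.

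Known partners and regulators were taken as lists and read in the same regional contrasts. The shares of all genes called in these contrasts were 1.72% in the ventral midbrain, 0.776% in the ventral forebrain, 1.57% in the ventral hindbrain, 4.51% in the dorsal midbrain and 0.619% in the alar plate. Of 15 anterior Hox genes 8 had a mean below 1 RPKM in every group and were not tested. Of the 7 others, 5 reached that minimum in the ventral hindbrain alone, so the filter had chosen them for their level there, and the calls are given as a description. The 5 called there, with none called elsewhere, included Hoxa2 (2.79 ± 0.28, adjusted p = 4.05e-10), Hoxb2 (2.37 ± 0.28), Hoxb3 (1.68 ± 0.30) and Hoxa3 (1.21 ± 0.22), genes of hindbrain segment identity. Hoxa2 and Hoxb2 also served as markers of that region. Of 13 other TALE genes, 1 was higher in the ventral hindbrain (Irx4, 1.83 ± 0.15) and 2 were lower in the ventral forebrain (Irx2, -1.86 ± 0.26, and Irx1, -1.14 ± 0.23); none passed in the ventral midbrain, dorsal midbrain or alar plate. Of 10 other partners and regulators, Cyp26b1 was higher in the ventral hindbrain (3.93 ± 0.32) and lower in the ventral forebrain (-2.43 ± 0.32), as Meis1 was, and also lower in the ventral midbrain (-1.24 ± 0.32) and dorsal midbrain (-1.07 ± 0.32), where Meis1 was not called. Otx2, for a forebrain and midbrain homeodomain factor, was higher in the dorsal midbrain (2.84 ± 0.28) and lower in the ventral hindbrain (-3.50 ± 0.28), while Meis2 was higher in both. En1, a midbrain and anterior hindbrain homeodomain gene, was higher in the ventral midbrain (3.16 ± 0.31), where Meis2 was lower, and in the ventral hindbrain (1.03 ± 0.31), where Meis2 was higher. It was lower in the ventral forebrain (-2.14 ± 0.31) and dorsal midbrain (-1.80 ± 0.31). Over these 10 genes, 2 were higher and 1 lower in the ventral midbrain, 2 and 3 in the ventral forebrain, 3 and 2 in the ventral hindbrain, 1 and 3 in the dorsal midbrain, and none in the alar plate.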

How the data were processed

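RNA from 60 pieces of TH-GFP mouse embryonic brain was isolated on RNeasy columns and sequenced from TruSeq libraries, per the labels. Reads were mapped with Bowtie to mm10, per the submitters' processing notes; the read counter, annotation release, filters and library strand are each not given in the sources used here. The deposited unit is RPKM, normalised by the authors. All 60 columns were matched to samples. Runs were read from prefixes in the sample descriptions. That these prefixes name sequencing runs, and not another kind of batch, is a reading made here. Dividing by each library's step gave whole reads for 100% of values (within 0.001 read).

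limma 3.58.1 with a mean-variance trend (R 4.3.3) was run on log2(RPKM + 1) over all genes whose mean reached 1 RPKM in 1 or more groups fitted, and checked on simulated data. Regions were compared over 60 libraries (each region against the mean of the others, averaged over stages) and within each stage (15 libraries), stages within each region (12 libraries), and the change among regions over 30 libraries. The fits within a region also held its E11.5 and E13.5 libraries. Genes were called at an adjusted p below 0.05 and a log2 size of at least 1. Regional means weight the 4 stages equally. Alternatives were a pseudocount of 0.1, no filter, median-of-ratios scaling, voom on recovered reads, a replicate block, other stages or runs, and each library left out; leaving out libraries that match another region best was chosen after seeing the data. Named genes are the 5 members, the 3 genes most like each, leaving out predicted genes, and up to 4 called genes per list with the smallest adjusted p. Some marker results are not reported here. The members and lists were chosen with earlier results of these data known. Ventral midbrain replicates 3 and 4 at E14.5 differed least (chi-square of 1.12 per feature) and were kept as separate samples. Sampling of reads alone would give about 1. Replicates 3 and 4 of the ventral hindbrain (1.49) and of the ventral forebrain (1.73) at E14.5 came next and were also kept.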

Additional observations from a re-analysis of the deposited data

Results flagged for a closer look

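The change of Meis3 from E12.5 to E14.5 differed among the 5 regions by a direct test of that difference. Its changes ranged over 0.74 on the log2 scale (limma F test over 30 libraries, adjusted p = 0.00957). They were -0.64 in the ventral hindbrain, -0.60 in the ventral forebrain, -0.34 in the alar plate, -0.23 in the ventral midbrain and 0.10 in the dorsal midbrain. The adjusted p stayed between 0.00387 and 0.0308 when any single library was left out, and it was 0.0119 without the libraries that matched another region best. At E14.5 the dorsal and ventral midbrain libraries were in another run than those of the 3 other regions, which all had lower values of this change, so the difference and the run cannot be told apart.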

How the results depend on the processing

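Of 75 tests of a member, 46 were followed through all settings: those among regions within a stage, those of the change among regions, and others with an adjusted p below 0.11. Over these and 1646 settings, 1593 kept direction and side of the threshold, 44 fell below it, 8 passed it and 1 turned round: Meis3 in the ventral forebrain was 0.38 at E14.5 relative to E11.5 (adjusted p = 0.0542), against -0.60 relative to E12.5. In the 29 other tests the sign turned in 35 of 1139 settings, over 16 tests (7 by region, 9 of change), and the adjusted p fell below 0.05 in 23. In 3 of these 23 the sign had turned too: Meis3 in the ventral hindbrain without E11.5 (-0.16) and without the libraries that match another region best (-0.16), against 0.07, and Meis2 in the ventral midbrain relative to E11.5 (-1.79), against 0.59 relative to E12.5. The last, like the Meis3 value relative to E11.5 above, compares other stages. Other regional signs turned in Meis3 (ventral forebrain, dorsal midbrain and alar plate), Meis1 (dorsal midbrain and alar plate) and Pbx3 (alar plate), with none past that p. The causes of the shifts below were not tested. Member calls by region were 7 (6 to 8 with each library left out), within stages 9 (7 to 9) and over neighbouring pairs without overlap 17 (16 to 22). Calls of change were 0 (0 to 0), with 5 against E11.5 and 1 (Pbx3 in the ventral forebrain) without the libraries that match another region best. Calls of a differing change were 0 (0 to 1), with 1 (Pbx3) without those libraries.

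Counts over all genes moved more. By region they were 252, 114, 231, 663 and 91 in the ventral midbrain, ventral forebrain, ventral hindbrain, dorsal midbrain and alar plate. In that order, a pseudocount of 0.1 gave 626, 269, 675, 1480 and 244, and voom on recovered reads 605, 254, 732, 1602 and 264. With each library left out they ran from 238 to 302, 96 to 130, 204 to 273, 619 to 751 and 83 to 106. With only E12.5 and E13.5, the ventral midbrain had 397, the ventral hindbrain 388 and the alar plate 150; without E11.5 the alar plate had 156. Without the libraries that match another region best and without E11.5, the ventral forebrain had 172 and the alar plate 194.

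Within stages the counts were 16 at E11.5 (0 to 215 with each library left out), 2007 at E12.5 (1386 to 2448), 2326 at E13.5 (2196 to 2448) and 2197 at E14.5 (1864 to 2435). At E11.5 the pseudocount gave 2, voom 9, the run of 4 regions alone 0, and leaving out the libraries that match another region best 1674. At E14.5 the run of 3 regions alone gave 640.

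For the change to E14.5, 586, 189, 173, 120 and 1 genes passed in the same order of regions, the last being Mir2861, named after its value was seen (441 to 657, 24 to 287, 82 to 194, 37 to 331 and 1 to 11 with each library left out). Against E11.5 these were 2468, 2297, 2271, 2158 and 2786. A pseudocount of 0.1 gave 1002 in the ventral midbrain, 280 in the ventral hindbrain and 206 in the dorsal midbrain, and voom gave 987, 285 in the ventral hindbrain and 4 in the alar plate. Leaving out the libraries that match another region best gave 288 in the ventral forebrain and 0 in the alar plate. That left alar plate groups of 1 library at E12.5 and E14.5, assumed to vary like the other groups. Genes whose change differed among regions were 313 (170 to 425), 130 with voom and 524 without those libraries.

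The labels do not tie a replicate number to a shared embryo. Not every pair of 1 number correlated above 0.1 once group means were taken off, so the numbers were not treated as pairs. As a hint from the data alone, libraries of 1 number correlated best with their own number in 5 of 15 cases at E11.5, 10 at E12.5, 15 at E13.5 and 12 at E14.5, and some pairs were negative. With the replicate number as a block, no regional call of a member was gained or lost (7) and none within stages (9). The block left 10 genes at E11.5, and 348, 8, 22, 0 and 0 genes for the change to E14.5. Of the 5 gene and region pairs past the adjusted p for that change, 1 (Pbx2 in the ventral midbrain, 0.0258) remained so under the block. For the change, the block joined libraries of 1 number from different stages, which cannot share an embryo. Its values there therefore say nothing on pairing within a stage. Depth was lowest at E14.5 and E11.5, and 3 libraries per group limit every interval.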
